A study of Mus musculus with 4 samples.

Results

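The Wnt ligands, their Frizzled receptors and the regulators around them were followed as 50 of the 21951 protein-coding genes of the annotation. They were chosen by symbol, with no measured value in the rule, although earlier results of these data were known. They are 19 *Wnt* genes, 10 *Fzd* genes, 4 *Sfrp*, 4 *Dkk* and 4 *Rspo* genes, the co-receptors *Lrp5* and *Lrp6*, *Axin1*, *Axin2*, *Ctnnb1*, and the 4 TCF/LEF transcription factors *Tcf7*, *Tcf7l1*, *Tcf7l2* and *Lef1*. The measurement was chromatin accessibility in aortic nuclei, by ATAC-seq, in which the transposase Tn5 cuts preferentially into open DNA. A peak is a stretch where more fragments were found than in the local background of the same library.

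Control mice were *Col3a1*+/+ with no treatment, and VEDS mice were *Col3a1*G938D/+, heterozygous for a glycine substitution in type III collagen that models vascular Ehlers-Danlos syndrome, with "Disease" in the treatment field. All were on the C57BL/6J background and 60 days old (P60). Each of the 4 libraries (control female, VEDS male, control male and VEDS female) came from the pooled aortas of 2 mice, so a genotype has 2 libraries, which also differ in sex. The peak lists held 21176, 41444, 1236 and 504 peaks in that order. The control female and VEDS male lists are called the long lists here and the other two the short lists. Since a genotype has 1 long and 1 short list, genotype, sex and library depth cannot be told apart, and 2 libraries against 2 cannot give a two-sided exact permutation p below 0.333. No test between genotypes was therefore made. In such aggregated nuclei, a site open in fewer nuclei and a site less open in each nucleus give the same signal.

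Wnt proteins are secreted lipid-modified ligands that bind Frizzled receptors. With the co-receptors LRP5 or LRP6, binding stops the destruction complex, in which the scaffold AXIN1 or AXIN2 holds β-catenin (*Ctnnb1*) for breakdown. Stabilized β-catenin enters the nucleus and activates genes with TCF/LEF factors, among them *Axin2* itself, a negative feedback regulator. SFRP proteins bind Wnt ligands outside the cell, DKK proteins block LRP5 and LRP6, and R-spondins strengthen the signal by keeping Frizzled receptors at the surface. Other Wnt ligands, such as WNT5A and WNT11, are best known for signaling without β-catenin. In the artery wall, the pathway is known from vessel formation and from the growth and phenotype of vascular smooth muscle cells (VSMC).

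The sequences below are from the reference genome (RefSeq GRCm38.p6, the same build as mm10) and are written 5′ to 3′ on the strand of the named gene. The first is the stretch upstream of *Fzd7* (chr1:59481769-59481949, plus strand) that lay inside a peak of all 4 lists. It ends 475 bp before the *Fzd7* start and lies outside the gene and its exons.
*Fzd7* promoter: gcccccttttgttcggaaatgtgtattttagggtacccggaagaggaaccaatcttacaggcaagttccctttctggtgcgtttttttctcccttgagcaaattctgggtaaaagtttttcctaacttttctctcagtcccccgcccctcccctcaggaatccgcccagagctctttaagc

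The second is 300 bp around the summit of an intronic *Dkk3* peak (chr7:112147984-112148283, minus strand). In the VEDS male list, 85 peaks lay within 20 kb of members and far from any start, and this peak had their highest −log10 q. It was also called in the control female list.
*Dkk3* intron: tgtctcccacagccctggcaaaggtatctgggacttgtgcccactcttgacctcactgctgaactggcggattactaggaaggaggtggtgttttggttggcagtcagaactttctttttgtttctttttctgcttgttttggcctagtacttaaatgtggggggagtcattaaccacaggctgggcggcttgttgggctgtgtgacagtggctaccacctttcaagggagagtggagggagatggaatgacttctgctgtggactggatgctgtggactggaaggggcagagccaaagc

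The next 5 hold the letters CTTTGAT, a consensus of the TCF/LEF factors, here in capitals. The *Axin2* site (chr11:108920417-108920443, plus strand) lies in its first exon, in the 5′ untranslated region. The *Lrp6* (chr6:134567289-134567415, minus strand) and *Tcf7* (chr11:52283308-52283434, minus strand) sites lie upstream of the genes and outside annotated exons. The *Dkk3* (chr7:112129432-112129558, minus strand) and *Wnt5b* (chr6:119438344-119438470, minus strand) sites are intronic. At *Axin2* and *Dkk3* the match was inside the peak, and at *Lrp6*, *Tcf7* and *Wnt5b* it was just outside the called edge but within the 300-bp window around the summit.
*Axin2* site: gccggctgcgCTTTGATaaggtcctgg
*Lrp6* site: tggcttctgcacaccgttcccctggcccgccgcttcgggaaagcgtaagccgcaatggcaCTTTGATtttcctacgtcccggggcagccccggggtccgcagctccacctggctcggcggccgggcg
*Tcf7* site: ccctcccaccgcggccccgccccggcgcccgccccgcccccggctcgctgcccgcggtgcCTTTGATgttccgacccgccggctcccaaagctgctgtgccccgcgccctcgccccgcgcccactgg
*Dkk3* site: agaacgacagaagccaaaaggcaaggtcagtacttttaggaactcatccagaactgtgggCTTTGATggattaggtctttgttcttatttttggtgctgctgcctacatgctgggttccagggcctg
*Wnt5b* site: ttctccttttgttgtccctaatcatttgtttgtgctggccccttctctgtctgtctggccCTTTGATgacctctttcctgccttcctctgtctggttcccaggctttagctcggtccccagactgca

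The last 4 hold an AP-1 match, TGACTCA on the gene strand and in capitals, at peaks called in both long lists. They lie upstream of *Sfrp2* (chr3:83764486-83764612, plus strand), in an intron of *Tcf7l2* (chr19:55852003-55852209, plus strand), and in intergenic DNA upstream of *Wnt16* (chr6:22270338-22270464, plus strand) and *Wnt7b* (chr15:85600365-85600571, minus strand). At *Tcf7l2* and *Wnt7b* the match was inside the peak in both long lists. The *Sfrp2* match was outside the called edge of the VEDS male peak, and the *Wnt16* match ran past that of the control female peak. Both were within the 300-bp window around the summit.
*Sfrp2* site: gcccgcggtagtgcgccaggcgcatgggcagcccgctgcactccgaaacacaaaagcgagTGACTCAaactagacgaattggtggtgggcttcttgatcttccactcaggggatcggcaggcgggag
*Tcf7l2* site: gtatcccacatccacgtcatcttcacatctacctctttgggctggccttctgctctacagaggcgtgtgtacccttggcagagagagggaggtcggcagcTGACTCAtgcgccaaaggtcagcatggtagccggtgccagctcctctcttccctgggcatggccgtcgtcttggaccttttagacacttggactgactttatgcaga
*Wnt16* site: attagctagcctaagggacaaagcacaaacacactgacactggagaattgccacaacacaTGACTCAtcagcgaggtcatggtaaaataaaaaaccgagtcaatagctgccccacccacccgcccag
*Wnt7b* site: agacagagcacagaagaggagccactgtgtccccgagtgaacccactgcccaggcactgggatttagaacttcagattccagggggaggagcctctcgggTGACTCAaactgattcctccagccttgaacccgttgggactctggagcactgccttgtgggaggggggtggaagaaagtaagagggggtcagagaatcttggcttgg

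The number of fragments at each summit was recovered from the deposited values, with medians of 14 (control female), 22 (VEDS male), 7 (control male) and 6 (VEDS female). The sources used here do not say whether whole fragments or Tn5 cut ends were counted, and the word fragments stands for either. The short lists stand apart also in what they hold, since 68.8% of control male peaks and 27.4% of VEDS female peaks lay mostly in masked repeats, against 3.90% and 5.09% in the 2 long lists. As a check of the tissue, promoter peaks were found at 5 of 5 VSMC markers (*Acta2*, *Cnn1*, *Lmod1*, *Myh11*, *Tagln*) in each long list. Endothelial markers had 1 of 5 in the control female list and 4 of 5 in the VEDS male list, fibroblast markers 2 and 1 of 5, immune markers 0 and 1 of 5, adipocyte markers 0 and 1 of 4 and striated muscle markers 1 and 2 of 4, so markers of other cell types moved between the same lists that are compared below. Their part in those comparisons was not tested. In the short lists none of these markers had a promoter peak, and the labeled tissue could not be checked there. The region of a gene without a peak was not taken as closed.

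Most Frizzled receptors and most of the machinery downstream of them had a promoter peak in the long lists, while few Wnt ligands and no R-spondin did. The shares were 70.0% and 90.0% for Frizzled receptors, and 66.7% and 77.8% for the intracellular and LRP members. Among all genes with a CpG-rich promoter, as defined below, they were 75.6% and 87.6%. For the 4 R-spondins the Wilson interval reached 49.0%, which includes the share of all genes in the control female list but not in the VEDS male list. A peak in the gene body or within 20 kb was found for 29 members in the control female list, where 64.1% of all protein-coding genes had one. In the VEDS male list it was found for 38 members (73.5% of all genes), for 2 in the control male list (4.66%) and for 2 in the VEDS female list (3.19%). A promoter peak, within 3 kb of a transcription start of the gene, was found for 17 members in the control female list (47.4% of all genes), 27 in the VEDS male list (58.5%), 1 in the control male list (1.62%) and 2 in the list of VEDS females (1.49%). The members' shares were 34.0% and 54.0% in the long lists, with 95% Wilson intervals of 22.4% to 47.8% and 40.4% to 67.0%. These intervals cover counting error only, treat genes as independent and include the shares of all genes.

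**Figure D1:**
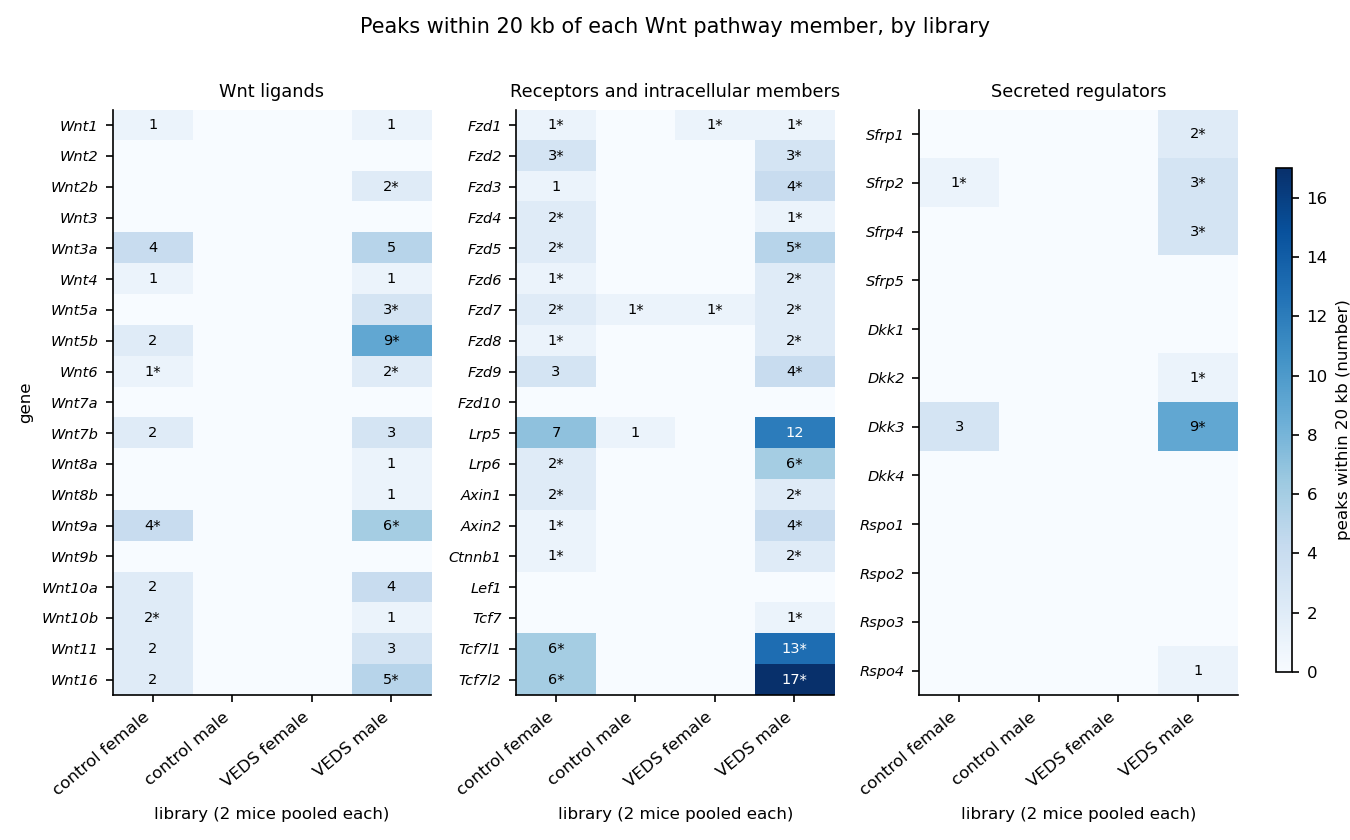
Number of peaks in the gene body or within 20 kb of each of the 50 members (rows) in each of the 4 libraries (columns, each of 2 pooled mice), with darker blue for more peaks, an asterisk for a peak within 3 kb of a start of that gene, and empty cells for no peak. The counts lie nearly all in the control female and VEDS male columns, *Fzd7* is the member with a count in all 4, and *Tcf7l2*, *Tcf7l1* and *Lrp5* have the most peaks.

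Among the Frizzled receptors, 7 of 10 had a promoter peak in the control female list and 9 of 10 in the VEDS male list. *Fzd2* had 38 fragments at the summit and a fold enrichment of 12.8 in the control female list, and 79 fragments and a fold of 10.55 in the VEDS male list, with no peak in the short lists. Ordered by −log10 q, these peaks were in the first 4.05% and 6.38% of their lists. *Fzd7* had 38 fragments in the control female list, 78 in the VEDS male, with 7 in the control male list and 5 in that of VEDS females. It was the member with a promoter peak in all 4, and in the short lists its peak stood at 48.1% and 85.9% of the order. *Fzd1* had 29 fragments in the control female list, 57 in the VEDS male and 4 in the VEDS female list, and no peak in the control male list. Its VEDS female peak was near the end of that list, at 94.8%.

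*Fzd5* had 23 and 63 fragments at its promoter in the control female and VEDS male lists, and *Fzd8* had 14 and 45. *Fzd8* had a second, lower promoter peak in the VEDS male list, with 16 fragments. *Fzd4* had 28 and 63 fragments in a peak that also covers the start of *Tmem135*, so the 2 genes share it. *Fzd5* had the most peaks of the family in the VEDS male list, 5, of which 4 were distal with 11 to 41 fragments. At *Fzd6* the lists did not show the same site, with 6 fragments in the control female at chr15:39007035-39007189 and 17 in the VEDS male at chr15:39006182-39006326, and these peaks do not overlap.

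*Fzd3* and *Fzd9* had a promoter peak in the VEDS male list without one in the control female list. *Fzd3* had 20 fragments, and the control female peak near it was at the start of *Fbxo16*. *Fzd9* had 34 fragments and a fold of 10.3, at 24.2% of the order. The 3 control female peaks within 20 kb of *Fzd9* were nearest to the start of the noncoding gene 9430007M09Rik and not to that of *Fzd9*. *Fzd10* had no peak within 20 kb in any list.

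Of the 19 Wnt ligands, 3 had a promoter peak in the control female list (*Wnt6*, *Wnt9a* and *Wnt10b*) and 6 in the VEDS male list (*Wnt2b*, *Wnt5a*, *Wnt5b*, *Wnt6*, *Wnt9a* and *Wnt16*). In the long lists the shares were 15.8% and 31.6%, against 47.4% and 58.5% of all genes. No Wnt ligand had a peak in a short list. *Wnt6* had 16 fragments and a fold of 8.84 in the control female list, and 31 fragments and a fold of 9.78 in the VEDS male list. *Wnt9a* had 12 fragments in the control female list and 34 in the VEDS male list at its promoter peaks of highest −log10 q, which are not the same site. The VEDS male peak overlapped the second control female peak of *Wnt9a*, which had 11 fragments. Peaks at *Wnt* promoters were thus lower in fragments than those at *Fzd1*, *Fzd2*, *Fzd4*, *Fzd5* and *Fzd7*, but not lower than at every Frizzled gene. In the control female list *Fzd8* had 14 and *Fzd6* 6, below *Wnt6*. In the VEDS male list *Fzd6* had 17 and *Fzd3* 20, below *Wnt6* and *Wnt9a*.

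The remaining *Wnt* promoter peaks were called in a single long list. *Wnt16* had 26 fragments in the VEDS male list and *Wnt5b* 22. *Wnt2b* had 11 and *Wnt5a*, a ligand of β-catenin-independent signaling, 8, the latter at 97.8% of the order and so close to the end of the list. *Wnt10b* had 6 fragments in the control female list, at 99.5% of the order, and was the member with a promoter peak there and none in the VEDS male list (0.178% of all genes were of this kind).

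Several Wnt ligands had peaks away from their start in both long lists. A site in the intergenic DNA downstream of *Wnt10a*, chr1:74816648-74817190 in the VEDS male list, had 13 fragments in the control female list and 49 in the VEDS male list, the latter with a fold of 16.5. *Wnt16* had 2 such control female peaks, with 10 and 9 fragments, both overlapped by VEDS male peaks with 20 and 29. *Wnt11* had 2 upstream of the gene, with 10 and 11 fragments against 21 and 37 in the overlapping VEDS male peaks. In *Wnt4*, a ligand of kidney and gonad development, the one peak was intronic in both lists, with 11 and 22 fragments.

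*Wnt5b* had the most peaks of the ligands in the VEDS male list, 9, with 10 to 35 fragments, against 2 in the control female list. Both control female peaks, with 7 and 15 fragments, lie at the promoters of the neighbors *Adipor2* and *Fbxl14*, and the VEDS male peaks that overlap them had 15 and 35. *Wnt7b*, a ligand of lung and kidney development, had distal peaks with 13 and 12 fragments in the control female list, overlapped by VEDS male peaks with 31 and 32. In the VEDS male list alone, *Wnt2b* had a distal peak with 24 fragments and *Wnt5a* had 2 with 17 each.

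A peak near a ligand was not always nearest to its start. *Wnt3a* had 4 peaks in the control female list and 5 in the VEDS male list, none of them nearest to *Wnt3a* itself, but to *Arf1* or *Wnt9a*. For *Wnt1* the peak in the control female list was that of *Wnt10b*, and the one in the VEDS male list was nearest to B130046B21Rik. *Wnt8a* and *Wnt8b* had 1 distal peak each in the VEDS male list, with 18 and 13 fragments. *Wnt2*, *Wnt3*, *Wnt7a* and *Wnt9b* had no peak within 20 kb in any list.

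Of the 8 secreted inhibitors, 1 had a promoter peak in the control female list (*Sfrp2*) and 5 had one in the VEDS male list (*Sfrp1*, *Sfrp2*, *Sfrp4*, *Dkk2* and *Dkk3*). In the control female list this is 12.5% (Wilson interval 2.24% to 47.1%), against 47.4% of all genes. In the VEDS male list it is 62.5% (30.6% to 86.3%), near the 58.5% of all genes. *Sfrp2* had 8 fragments in the control female list and 23 in the VEDS male list, in overlapping peaks upstream of the start. In the VEDS male list *Sfrp1* had 21 fragments, *Sfrp4* 17, *Dkk2* 12 and *Dkk3* 28. *Dkk1*, *Dkk4* and *Sfrp5* had no peak within 20 kb in any list.

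*Dkk3*, a member of the Dickkopf family that does not act on LRP6 as DKK1 does, had 3 peaks in the control female list and 9 in the VEDS male list. The intronic peak printed above had 22 fragments and a fold of 10.1 in the control female list, and 71 fragments and a fold of 15.6 in the VEDS male list. The other 2 control female peaks, with 10 and 5 fragments, were also overlapped by VEDS male peaks. The peak at the *Dkk3* start itself was called in the VEDS male list alone.

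None of the 4 R-spondins had a promoter peak in any list. *Rspo4* had a single distal peak, with 14 fragments in the VEDS male list, nearest to the antisense gene *Rspo4os*. *Rspo1*, *Rspo2* and *Rspo3* had no peak within 20 kb. With *Lef1* and the *Wnt*, *Fzd*, *Sfrp* and *Dkk* genes named above, 12 members (24.0%) had none in any list, against 25.8% of all genes.

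**Figure D2:**
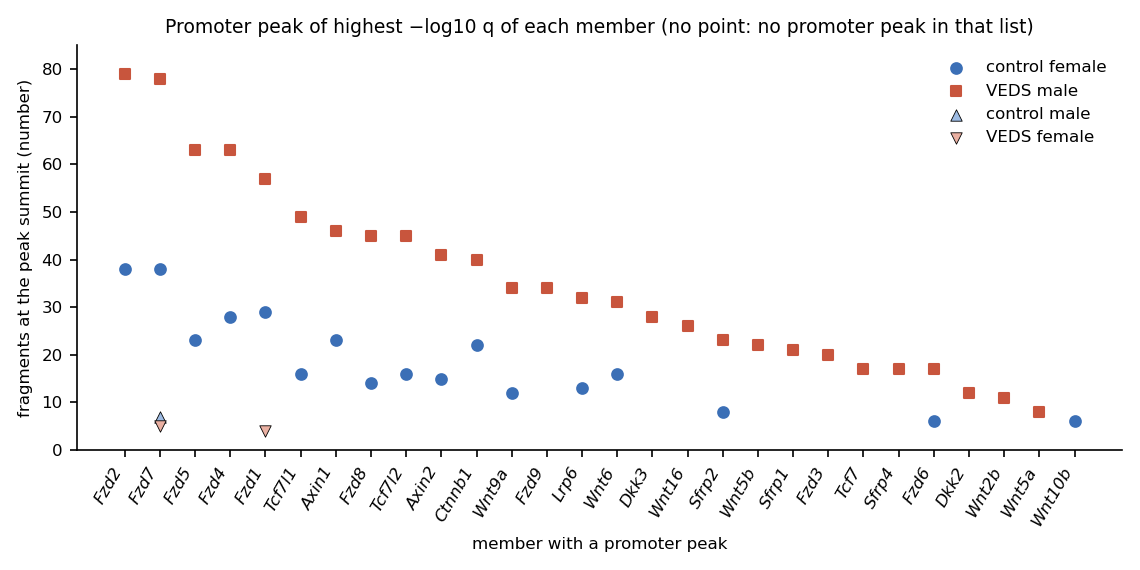
Fragments at the summit (vertical axis, number) of the promoter peak with the highest −log10 q of each member that had one (horizontal axis, ordered by the VEDS male value), with circles for control female, squares for VEDS male and triangles for the short lists. At *Fzd6*, *Lrp6* and *Wnt9a* the points of the long lists are different sites. Frizzled genes hold the first 5 places, with 57 to 79 fragments in the VEDS male and 23 to 38 in the control female list, and the genes without a circle have at most 34.

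Both Axin scaffolds and β-catenin itself had a promoter peak in both long lists. *Axin1* had 23 fragments and a fold of 10.1 in the control female list and 46 fragments and a fold of 10.8 in the VEDS male list. *Axin2*, the feedback target, had 15 and 41 fragments, in peaks that cover its start and the TCF/LEF match printed above. *Ctnnb1* had 22 and 40 fragments. The VEDS male list added 3 peaks at *Axin2*, with 12 to 16 fragments, and 1 near *Ctnnb1*, with 16, in an intron of *Ulk4*.

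Of the co-receptors, *Lrp6* had a promoter peak in both long lists and *Lrp5* in none. *Lrp6* had 13 fragments in the control female list, and 2 promoter peaks in the VEDS male list with 29 and 32, of which the first overlaps the control female peak. *Lrp5*, whose product is a receptor of the same kind, had no promoter peak in any list, although its promoter is CpG-rich (GC content 69.5%). It had instead 6 intronic peaks in the control female list, with 9 or 10 fragments each, and 10 in the VEDS male list, with 15 to 38. All 6 control female peaks were overlapped by VEDS male peaks. The intronic *Lrp5* peak with 38 fragments, chr19:3653471-3653818, had no overlapping control female peak. The same held for 6 of the 13 VEDS male member peaks with 30 to 39 fragments, this one included. Over all VEDS male peaks of that class it held for 1291 of 5150. The highest peak within 20 kb of *Lrp5* belongs to the start of the neighboring gene *Ppp6r3*, with 37 fragments in the control female, 79 in the VEDS male and 9 in the control male list, and this is the peak that places *Lrp5* among the members with a peak in a short list.

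Of the TCF/LEF factors, *Tcf7l1* and *Tcf7l2* had a promoter peak in both long lists, *Tcf7* in the VEDS male list and *Lef1* in none. *Tcf7l1*, mostly a repressor of Wnt targets, had 16 and 49 fragments at its promoter. *Tcf7l2* had 16 and 45. *Tcf7* had 17 in the VEDS male list, in a peak upstream of the start. *Lef1* had no peak within 20 kb, although its promoter is also CpG-rich, with a GC content of 52.1%.

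*Tcf7l2* and *Tcf7l1* were also the members with the most peaks in the VEDS male list, 17 and 13, against 6 each in the control female list. Both are long genes, of 191835 and 162877 bp. The intronic *Tcf7l2* peak with the AP-1 match, chr19:55851732-55852436 in the VEDS male list, had 27 and 53 fragments. It had the highest −log10 q of the 32 distal control female peaks within 20 kb of members. Of the 6 control female peaks of *Tcf7l1*, one had 19 fragments and is at the start of the neighbor *Tgoln1*. Many peaks in these introns were nearest to noncoding genes inside them, such as *Ppnr* in *Tcf7l2* and *Gm15402* in *Tcf7l1*, so the deposited lists do not tie them to the host gene.

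**Figure D3:**
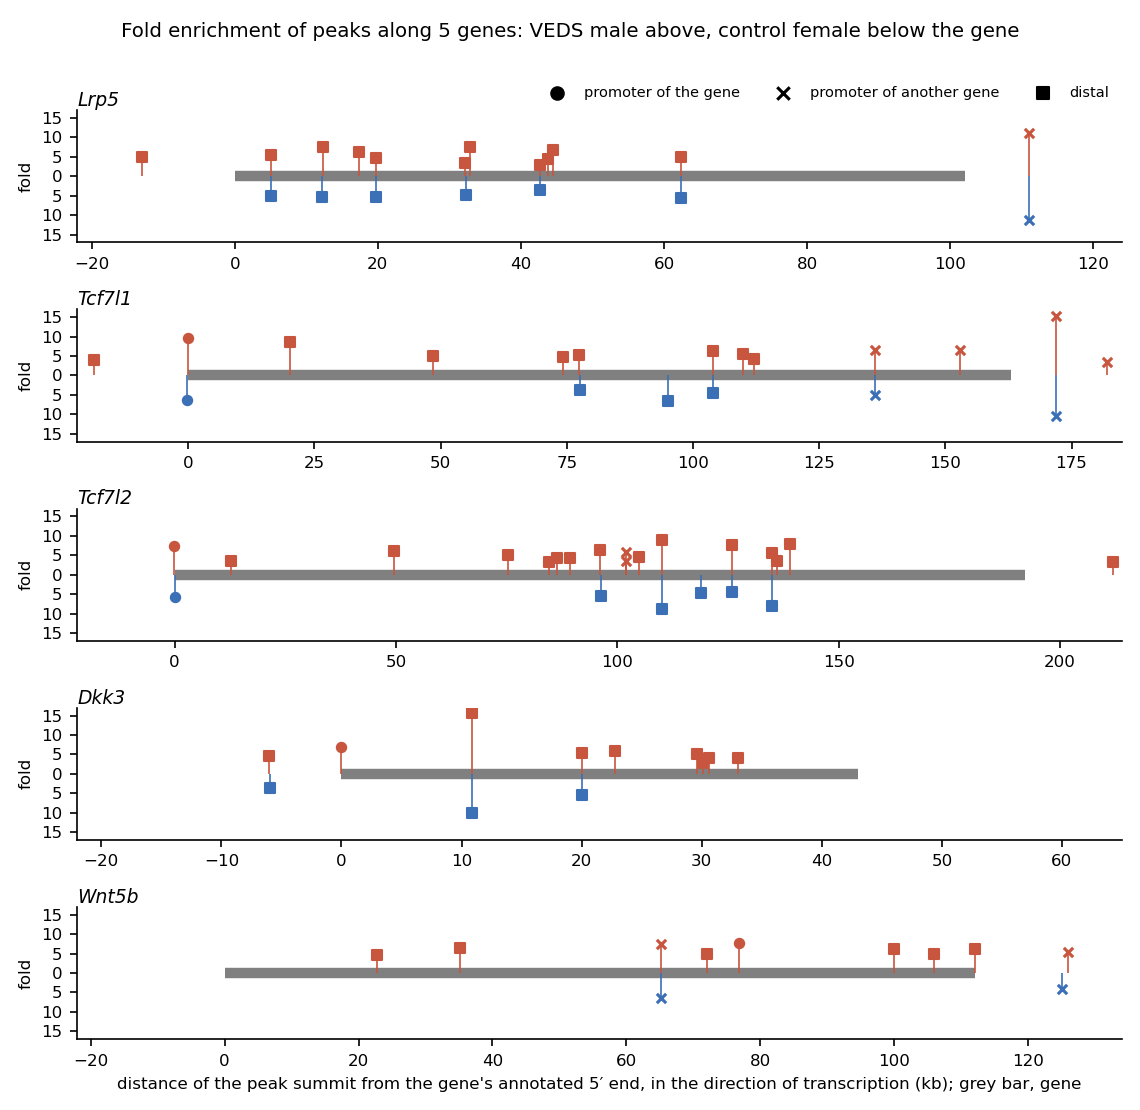
Fold enrichment of the peaks of *Lrp5*, *Tcf7l1*, *Tcf7l2*, *Dkk3* and *Wnt5b* (vertical axis, VEDS male upward in red, control female downward in blue) against the distance of the summit from the annotated 5′ end of the gene in kb (horizontal axis), with the gene as a grey bar, circles for the promoter of the gene, crosses for promoters of other genes and squares for distal peaks. *Lrp5* lacks a circle in both lists, and the tallest distal mark is that of the *Dkk3* intron, at 15.6 and 10.1.

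CpG-rich promoters, here with a GC content of at least 50% and an observed to expected CpG ratio of at least 0.6 within 500 bp of the start, are open in most tissues. They make up 49.8% of all genes and 39 of the 50 members. Over all CpG-rich promoters, a peak was found at 75.6% in the control female list and at 87.6% in the VEDS male list. Of the members' 39, a peak was found at 17 (43.6%) and 23 (59.0%). The 14 CpG-rich *Wnt* promoters had a peak in 3 (21.4%, Wilson interval 7.57% to 47.6%) and 5 cases (35.7%, 16.3% to 61.2%). The 10 *Fzd* promoters, all CpG-rich, had one in 7 and 9 cases (39.7% to 89.2% and 59.6% to 98.2%). The intervals of the *Wnt* genes lay below the shares of all CpG-rich promoters in both lists, and those of the *Fzd* genes included them. Of 11 CpG-poor member promoters, 0 and 4 (*Dkk2*, *Dkk3*, *Sfrp4* and *Wnt16*) had a peak, against 19.4% and 29.5% of all CpG-poor promoters.

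**Figure D4:**
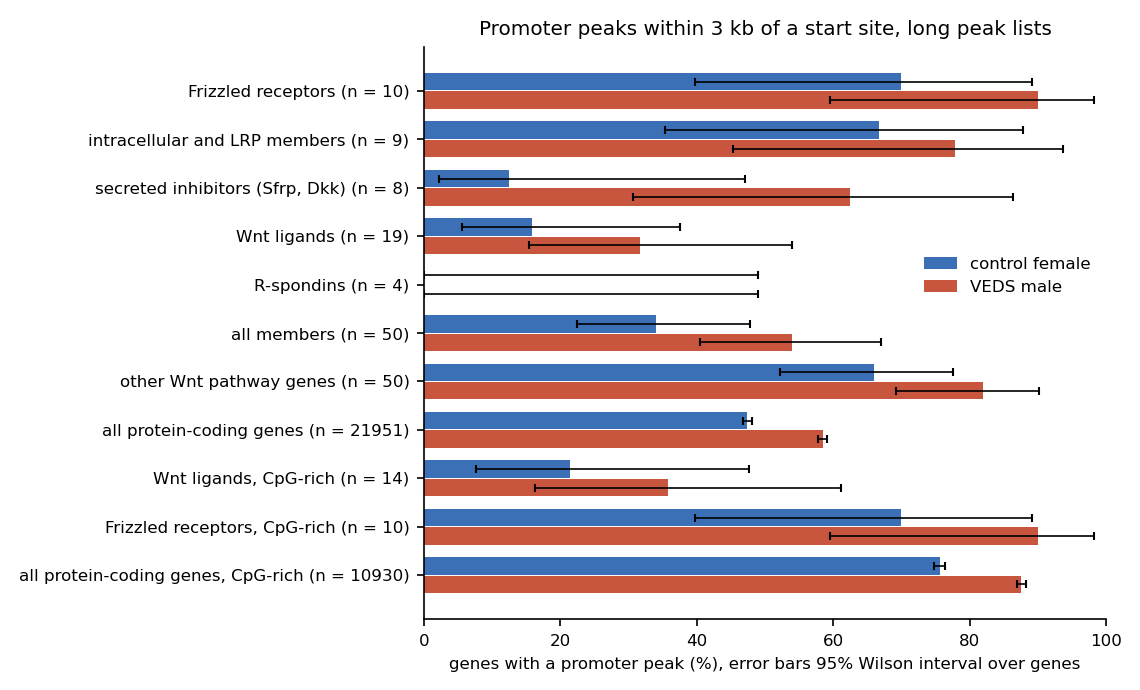
Share of genes with a peak within 3 kb of a start (horizontal axis, %) for groups of members, for the other Wnt pathway genes and for all protein-coding genes, in the control female (blue) and VEDS male (red) lists, with 95% Wilson intervals over genes as error bars. Frizzled receptors reach 70.0% and 90.0%, Wnt ligands 15.8% and 31.6%, and R-spondins 0%.

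Between the long lists, 16 members had a promoter peak in both (47.2% of all genes did), 11 in the VEDS male and not in the control female list (11.3%), and 1 the other way round (0.178%). The 16 are 7 *Fzd* genes, both *Axin* genes, *Ctnnb1*, *Lrp6*, *Tcf7l1*, *Tcf7l2*, *Sfrp2*, *Wnt6* and *Wnt9a*. The 11 are *Fzd3*, *Fzd9*, 4 *Wnt* genes, 4 secreted inhibitors and *Tcf7*. They had 8 to 34 fragments at the summit. A further 22 members (44.0%) had no promoter peak in any list, against 41.3% of all genes.

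Of the 63 control female peaks within 20 kb of members, 57 (90.5%, Wilson interval 80.7% to 95.6%) were overlapped by a VEDS male peak, against 95% of all peaks of that list. In the other direction, 56 of 142 VEDS male peaks (39.4%, 31.8% to 47.7%) were overlapped by a control female peak, against 47.6% of all. The overlapped VEDS male peaks had a median of 31 fragments and the others 16.5. The share was higher with more fragments, from 0 of 13 member peaks with 7 to 11 fragments, through 9 of 50 with 12 to 19, 18 of 44 with 20 to 29 and 7 of 13 with 30 to 39, to 22 of 22 with 40 or more. Over all peaks of the list it was 7.28%, 20.1%, 46.7%, 74.9% and 95.8% in the same classes. The *Fzd9* promoter, with its 34 fragments, is among the 6 member peaks of the class of 30 to 39 that had no partner.

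Where a peak was called in both long lists, the fragments could be set side by side. Over all 19616 such pairs, the VEDS male list had a median of 2.46 times the fragments of the control female list, with quartiles of 2.05 and 2.94. The lowest local backgrounds of these libraries had a ratio of 2.76. The 56 pairs at members had a median ratio of 2.40 and quartiles of 2.0 and 3.02. The lowest was 1.15, at a distal site near *Lrp6* (13 and 15 fragments), and the highest 4.0, in an intron of *Tcf7l2* (6 and 24). By exact 95% intervals for a ratio of 2 counts, 0 of the 56 excluded the median of all pairs, against 1.74% of all pairs. At these depths the intervals are wide, at the *Wnt10a* site for example from 2.01 to 7.57 around a ratio of 3.77. They treat the counted units as independent, which cut ends of the same fragment would not be.

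**Figure D5:**
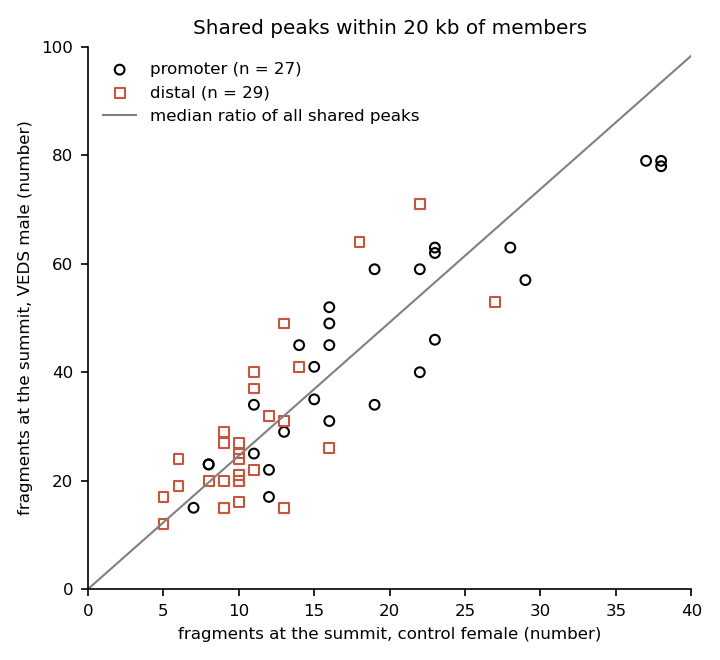
Fragments at the summit in the control female (horizontal axis, number) and VEDS male list (vertical axis, number) for the 56 peaks within 20 kb of members called in both, with circles for 27 promoter and squares for 29 distal peaks. The line is the median ratio of all shared peaks, 2.46, and the points scatter on both sides of it, between ratios of 1.15 and 4.0.

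Of the peaks within 20 kb of members, 20 of 63 in the control female and 35 of 142 in the VEDS male list were at a member's promoter, 11 and 22 at the promoter of another gene, and 32 and 85 distal. The 10 distal member peaks of highest −log10 q in the VEDS male list were at *Dkk3*, *Wnt9a*, *Wnt10a*, *Tcf7l2* (2 peaks), *Fzd9*, *Fzd5*, *Wnt7b*, *Lrp5* and *Wnt11*, with 31 to 71 fragments. Of the 10, 8 were overlapped by a control female peak. Of the 10 in the control female list, 9 were overlapped in the VEDS male list. At *Wnt9a* the site, chr11:59346113-59346477 in intergenic DNA past the end of the gene, had 18 and 64 fragments. At *Fzd5* an intergenic site upstream of the start had 14 and 41.

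The TCF/LEF letters CTTTGAT were searched on both strands in 300 bp around each summit. At promoter peaks of members they were found in 2 of 20 in the control female list, *Axin2* and *Lrp6*, and in 3 of 35 in the VEDS male list, the same 2 genes and *Tcf7*. These are 10.0% (Wilson interval 2.79% to 30.1%) and 8.57% (2.96% to 22.4%), and the lower limits lay above the shares of all promoter peaks, 1.89% and 2.08%. The counts rest on 3 sites, of which the *Axin2* and *Lrp6* sites are counted in both lists. At *Lrp6* and *Tcf7* the match lay outside the called peak. The *Axin2* match starts at position 108920427, and its peaks have summits at 108920320 (control female) and 108920322 (VEDS male). A 200-bp window around either summit does not hold it, and the promoter shares were not recomputed with that window. For the motifs below, and at distal peaks, every share of all peaks lay within the members' interval. The intervals were not corrected for the number of comparisons. At distal member peaks the TCF/LEF letters were found in 0 of 32 and in 2 of 85 (the *Dkk3* and *Wnt5b* sites above). The shares of all distal peaks, 2.87% and 3.02%, lie within the members' intervals of 0% to 10.7% and 0.648% to 8.18%.

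AP-1 letters (TGAGTCA or its reverse complement TGACTCA) were found in 3 of 32 distal member peaks in the control female list, at *Tcf7l2*, *Wnt7b* and *Wnt16*, and in 10 of 85 in the VEDS male list, the same 3 sites among them. The shares of all distal peaks were 18.7% and 15.5%, within the members' intervals of 3.24% to 24.2% and 6.52% to 20.3%. At members' promoter peaks AP-1 letters were found in 2 of 20 (*Sfrp2* and *Wnt10b*) and 2 of 35 (*Sfrp2* and *Wnt5b*), against 6.23% and 7.14% of all promoter peaks, within the members' intervals of 2.79% to 30.1% and 1.58% to 18.6%. The motif of MEF2, a family of muscle transcription factors, was found in 0 of 32 and 4 of 85 distal member peaks, at *Dkk3*, *Tcf7l1*, *Wnt5a* and *Wnt5b*, against 9.33% and 8.1% of all. These shares lie within the members' intervals of 0% to 10.7% and 1.85% to 11.5%. The MEF2 motif was in none of the members' promoter peaks, against 2.66% and 3.15% of all promoter peaks, within the members' intervals of 0% to 16.1% and 0% to 9.89%. A match describes the letters of a window and does not show that a factor binds there.

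Beyond the members, 50 other genes of the pathway were listed. Of these, 33 had a promoter peak in the control female list, 41 in the VEDS male, while the short lists had 2 (control male) and 0 (VEDS female). In the long lists these are 66.0% and 82.0%, against 47.4% and 58.5% of all genes. Among all genes with a CpG-rich promoter, the shares were 75.6% and 87.6%. In the short lists 1.62% (control male) and 1.49% (VEDS female) of all genes had one. *Gsk3b*, the kinase that marks β-catenin for breakdown, had 42, 89 and 10 fragments in the control female, VEDS male and control male lists. *Btrc*, part of the ubiquitin ligase that recognizes it, had 39, 88 and 6 in the same lists. *Znrf3*, a ligase that removes Frizzled receptors from the surface, had 42 and 78 in the long lists, and *Lgr4*, a receptor of R-spondins, 19 and 73. *Wls*, which carries Wnt ligands to the cell surface, had 13 and 38. The soluble Wnt inhibitors *Frzb* and *Wif1* had 6 and 8 fragments in the control female list and 16 and 17 in the VEDS male list. No promoter peak was found in any list for *Lgr5*, *Kremen2*, *Notum*, *Sp5*, *Ror2*, *Sostdc1*, *Cer1*, *Draxin* or *Ptk7*.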

How the data were processed

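Per the labels, the authors prepared aortic nuclei with a single-cell ATAC kit, and per their methods they analyzed each library in aggregate, aligned to mm10, removed duplicates by barcode, corrected Tn5 cut sites, left out blacklisted regions and used MACS2 in its narrow mode. The aligner is not given in the sources used here. Each deposited list gives per peak a score (10 times −log10 q), a fold enrichment (a ratio to the local background, pseudocount 1), −log10 p and −log10 q.

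Fragments at a summit were recovered by finding the integer for which a Poisson distribution returns the deposited fold and −log10 p together (tolerance 0.01), for 99.1% to 99.9% of peaks. Library totals were not analysed here, and depth is given only through these numbers.

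Peaks were assigned to GENCODE vM21 genes on GRCm38 (gene body or 20 kb), with promoters within 3 kb of a start. Distal peaks lie farther than 3 kb from any start of any gene. A symbol was taken as a family name, digits and an optional letter. The members and lists were chosen with earlier results of these data known. Every member was accounted for, with values for the TCF/LEF, *Axin*, *Lrp* and *Ctnnb1* genes, members in a short list, the members of each family with the highest promoter peak or most peaks, promoter peaks of a single long list, and the 10 highest distal peaks. Overlap was 1 bp. Motif windows were 300 bp. Intervals are at 95% and cover counting error only, since reads were not counted as molecules beyond the authors' barcode-aware removal. Alternatives were stricter −log10 q, equal list size, masked bases, other distances, overlaps, windows and consensus sequences, and leaving out each library. Scripts were tested on simulated data. Python 3.11.15, numpy 2.4.6, pandas 2.3.3, scipy 1.17.1, pysam 0.24.0 and matplotlib 3.10.9 were used.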

Additional observations from a re-analysis of the deposited data

Results flagged for a closer look

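The difference between genotypes ran in opposite directions in the sexes. In females, the VEDS minus control difference in the number of members with a peak within 20 kb was -27 (2 against 29 members), and in males it was 36 (38 against 2). For promoter peaks it was -15 in females (2 against 17) and 26 in males (27 against 1). The shares of all protein-coding genes moved in the same directions. A peak within 20 kb was found for 3.19% (VEDS) against 64.1% (control) in females, and 73.5% against 4.66% in males. A promoter peak was found for 1.49% against 47.4% in females, and 58.5% against 1.62% in males. With 1 library per sex and genotype the difference was not tested. In each sex the larger count is that of the long list, which had a median of 14 or 22 fragments at a summit against 6 or 7 in the short lists, so genotype, sex and depth cannot be told apart.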

How the results depend on the processing

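Of the recomputed values, 77 stayed within 1.5 times a count or within the interval of a share, and 29 did not. With −log10 q of at least 10, the control female list kept 17 members with a peak within 20 kb and 8 with a promoter peak. With thresholds of 5 or 10 both counts were 0 in the control male and VEDS female lists. With all lists shortened to the 504 peaks of highest −log10 q, both counts were 0 in the control female, control male and VEDS male lists. With the gene body alone, members with a peak numbered 17 for control females, 25 for VEDS males and 0 in both other lists. The share of control female member peaks overlapped was 97.1% with a threshold of 5, 60.3% with overlap of 50% of both peaks, and 61.9% with the VEDS male list shortened to the same length. That of VEDS male peaks was 29.8% and 24.6% with thresholds of 5 and 10, 26.8% with the 50% overlap and 63.3% at equal length. Leaving out a library, members with a promoter peak in the merged lists ranged from 1 to 17 in control and from 2 to 27 in VEDS, the low values being without the control female or the VEDS male library. The motif shares of distal member peaks stayed within their intervals under each window, consensus, threshold and masking tried. Those of promoter peaks were not recomputed. The short lists had medians of 7 and 6 fragments at a summit, and what limits their length was not tested. No paired analysis was possible because the labels give no replicate numbers (those used here name the libraries in order) and the counts come from no test.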
